A study of Mus musculus with 6 samples.

Results

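The transcripts described here are new lncRNAs of the mouse brain cortex whose deposited secondary structure held a long uninterrupted stem. A stem was read as a run of consecutive stacked base pairs, in which each base of the 5′ arm paired with the facing base of the 3′ arm without bulge or internal loop. The rule asked for 16 or more such pairs, counting AU, GC and GU pairs alike, and 387 of the 8040 deposited transcripts met it. This is 4.81% of them, with a 95% Wilson interval of 4.37 to 5.30 that covers counting error only. The members were chosen by the deposited structures, so stem length and pairing are the values that selected them and are given as a description with no test.

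The transcripts came from cortex of wild type C57BL/6 mice (adult males of C57BL/6 J in the methods), in a control group and a group taken 24 h after subarachnoid haemorrhage (SAH), a bleed under the membranes of the brain. SAH was induced with a filament that perforated an artery from inside. Controls had the operation without perforation by the methods and are called normal in the labels. Each group had 3 libraries, and lysates of 3 mice were pooled for each, so that the spread between single animals is not in the data. The deposited records give for each transcript 1 sequence, 1 structure and 1 folding energy over the whole series. They give nothing per library. The depth behind each transcript is therefore unknown, control and SAH were not compared, and the tissue label was not checked against marker genes.

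As background, RNA folds back on itself where it holds a sequence and, further along, its reverse complement. Long perfect duplexes are uncommon in cellular RNA and are bound by proteins that read double-stranded RNA, among them the ADAR editing enzymes, the nuclease Dicer and the kinase PKR. In mammals such duplexes are often formed by inverted copies of transposable elements such as the B1 and B2 elements of the mouse, or by simple repeats whose units pair with each other. A GU pair, the wobble pair, is weaker than a GC pair and is tolerated within an A-form helix. A predicted structure of a whole lncRNA is a calculation and does not say what the RNA does in the cell.

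The arms of the longest stems are shown because they carry the main feature of these transcripts. Each arm is written 5′ to 3′ as deposited, and capitals mark the bases of GU wobble pairs. The first 4 transcripts have arms of mixed sequence.
TCONS_00250339 5′ arm: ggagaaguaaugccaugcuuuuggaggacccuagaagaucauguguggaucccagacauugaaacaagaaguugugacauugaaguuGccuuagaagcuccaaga
TCONS_00250339 3′ arm: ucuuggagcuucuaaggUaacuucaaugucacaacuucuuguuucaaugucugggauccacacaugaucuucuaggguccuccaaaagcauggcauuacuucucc
TCONS_00131673 5′ arm: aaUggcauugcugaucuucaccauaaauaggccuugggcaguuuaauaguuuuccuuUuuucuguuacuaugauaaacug
TCONS_00131673 3′ arm: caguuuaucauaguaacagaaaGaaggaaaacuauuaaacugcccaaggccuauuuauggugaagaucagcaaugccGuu
TCONS_00238053 5′ arm: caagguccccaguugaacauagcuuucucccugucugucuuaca
TCONS_00238053 3′ arm: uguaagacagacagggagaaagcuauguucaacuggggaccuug
TCONS_00114606 5′ arm: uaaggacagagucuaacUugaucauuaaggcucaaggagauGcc
TCONS_00114606 3′ arm: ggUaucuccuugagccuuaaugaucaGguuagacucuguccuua

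Other long stems joined a GU repeat to an AC repeat, and the pairs below show a stem without any wobble pair and one in which the AC arm drifted into GC units.
TCONS_00033438 5′ arm: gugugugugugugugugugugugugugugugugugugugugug
TCONS_00033438 3′ arm: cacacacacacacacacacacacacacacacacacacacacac
TCONS_00198950 5′ arm: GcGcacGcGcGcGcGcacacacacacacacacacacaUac
TCONS_00198950 3′ arm: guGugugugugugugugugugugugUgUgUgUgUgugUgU

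Another kind of arm recurred in many other transcripts of the set, and 4 stems of this kind are shown.
TCONS_00229577 5′ arm: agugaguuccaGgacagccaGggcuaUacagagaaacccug
TCONS_00229577 3′ arm: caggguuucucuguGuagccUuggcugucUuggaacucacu
TCONS_00046981 5′ arm: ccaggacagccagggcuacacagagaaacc
TCONS_00046981 3′ arm: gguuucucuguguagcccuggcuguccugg
TCONS_00166295 5′ arm: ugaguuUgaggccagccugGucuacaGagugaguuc
TCONS_00166295 3′ arm: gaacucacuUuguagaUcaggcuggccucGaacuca
TCONS_00075822 5′ arm: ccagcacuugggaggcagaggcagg
TCONS_00075822 3′ arm: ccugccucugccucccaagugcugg

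Stems that closed on themselves as local hairpins are shown whole, with the arms in lower case and the loop in capitals. They show a perfect palindrome of mixed sequence, an AU repeat and an AUGU repeat.
TCONS_00058292 hairpin: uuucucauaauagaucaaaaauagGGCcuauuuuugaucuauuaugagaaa
TCONS_00033136 hairpin: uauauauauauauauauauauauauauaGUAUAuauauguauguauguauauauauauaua
TCONS_00198811 hairpin: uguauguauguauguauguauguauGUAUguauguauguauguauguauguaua

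Stem lengths fell off steeply above the threshold. Over all 8040 transcripts the longest stem had a median of 11 base pairs, with quartiles at 10 and 13. Among the 387 members the median was 17, the upper quartile 19 and the highest 105. The rule took 140 transcripts with a stem of exactly 16 pairs, 67 with 17, 44 with 18 and 40 with 19, so that 291 of the members had fewer than 20. Stems of 20 or more pairs were held by 96 members (24.8%, Wilson interval 20.8 to 29.3), stems of 30 or more by 23 and stems of 40 or more by 7. Just outside the rule were 292 transcripts with a longest stem of 15 pairs and 538 with 14. The stem counts ran through the threshold without a break.

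**Figure D1:**
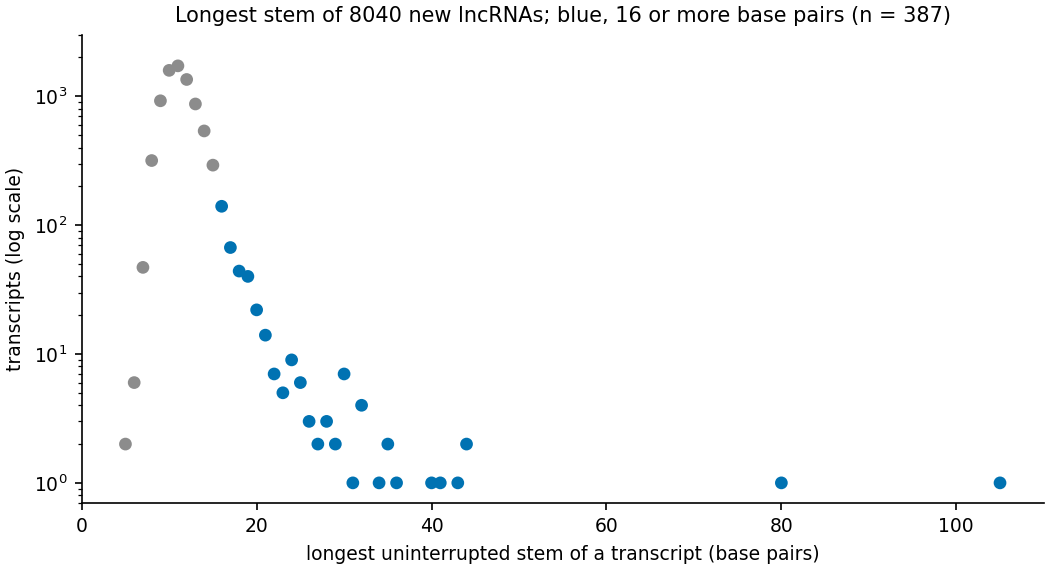
Number of transcripts (log scale) against the longest uninterrupted stem of a transcript in base pairs, for all 8040 new lncRNAs, with the 387 members in blue and the others in grey. Counts fell from 292 at 15 base pairs to 140 at 16, and only 2 transcripts lay beyond 44, at 80 and 105.

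At the edge of the rule, TCONS_00001264, TCONS_00004169 and TCONS_00004463 had a stem of exactly 16 pairs in transcripts of 936, 1197 and 1473 nt. Their stems held 4, 1 and 0 GU pairs, and their arms lay 41, 578 and 741 nt apart. Outside it by 1 pair were TCONS_00004683, TCONS_00007014 and TCONS_00007762, with 2346, 1314 and 913 nt. Both sets were taken in identifier order, and nothing in their length or GC content set them apart: GC content was 38.2% to 43.2% in the members and 36.5% to 45.0% in the others.

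Most members held a single stem of this length. There were 449 stems of 16 or more pairs in all, 1 each in 346 members, 2 each in 32 members and 3 or more in 9 members. Transcripts that shared an exact stretch of 100 bases, directly or through other transcripts of the set, were joined into sequence groups. The 387 members fell into 362 such groups, and 47 members were in a group with another member. The members held 367 distinct pairs of arms. Whether they came from the same locus or from copies was not tested, and members of a sequence group are not independent of each other.

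TCONS_00250339, a transcript of 9090 nt, had the longest stem. Its 105 base pairs joined positions 208 to 312 with positions 8985 to 9089, which left a span of 8672 nt, 95.4% of the transcript, between the arms. A single pair of the 105 was a GU pair. Inside this stem, each across 1 interruption, followed further stems of 89, 35, 89 and 32 pairs, and 9 of its 10 stems of 16 or more pairs lay on the same long duplex. Where interruptions of up to 10 nt were allowed, the duplex held 729 base pairs with 57 interruptions. The transcript thus read as a sequence near its start that returned, inverted, at its end.

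TCONS_00131673, with 2016 nt, had the second longest stem, of 80 pairs with 2 GU pairs and 1093 nt between the arms. It had 6 stems of 16 or more pairs, of 20, 23, 80, 36, 18 and 28 pairs from the outside in, all on a duplex that held 277 base pairs with 13 interruptions. In both transcripts a 16-base piece of the arms was found in other sequence groups, in 1 for TCONS_00250339 and in 2 for TCONS_00131673. TCONS_00021015 and TCONS_00129119 had 4 long stems each, with a longest of 30 and 29 pairs, and TCONS_00041758 had 3, with a longest of 19.

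**Figure D2:**
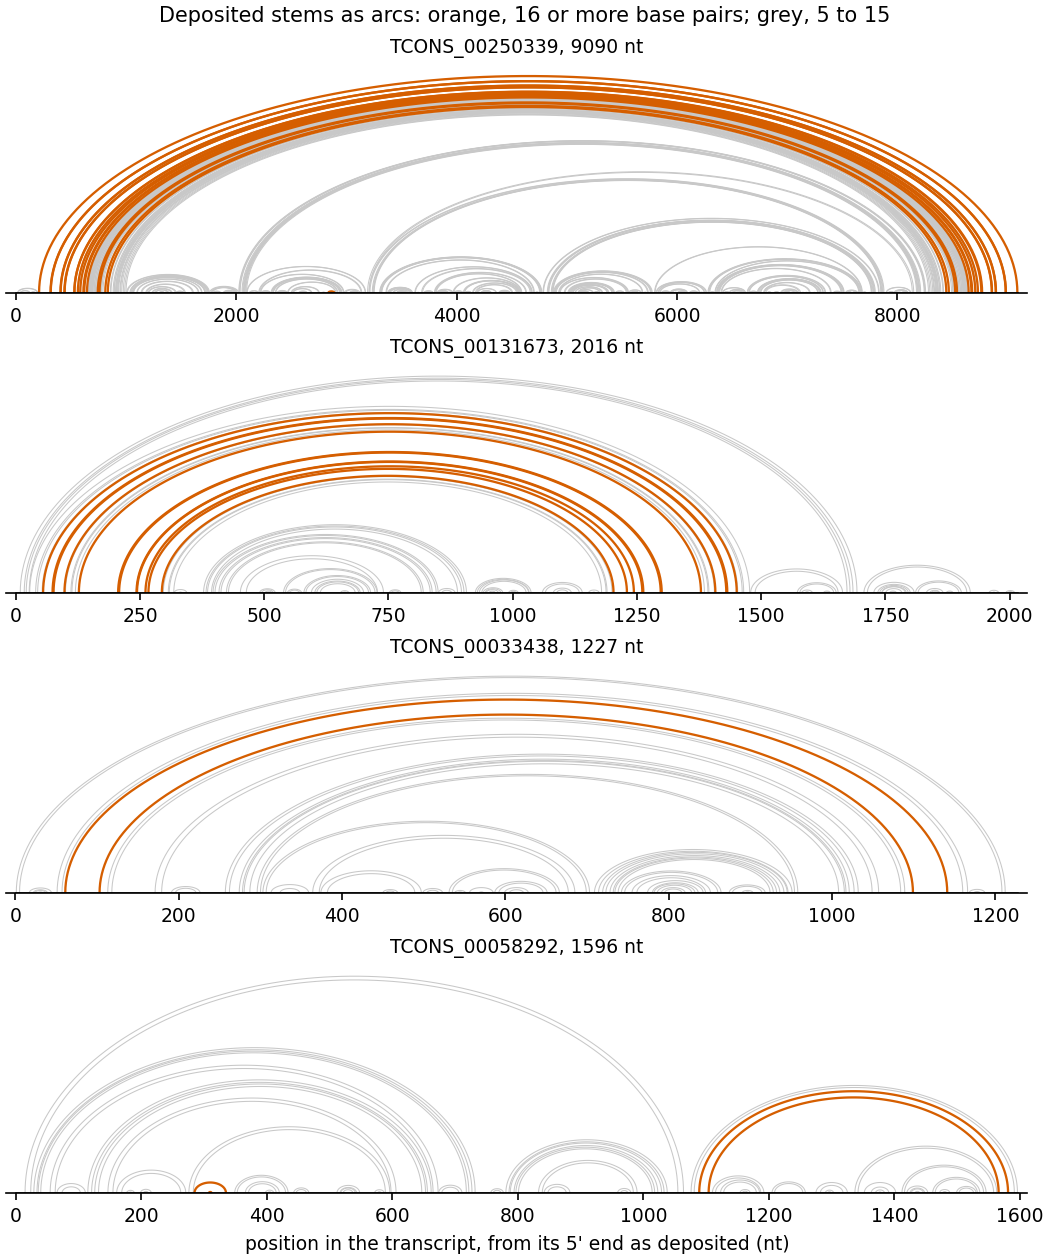
Arcs join the first and the last base pair of each deposited stem of 5 or more pairs along 4 transcripts, by position in nt from the 5′ end as deposited, with stems of 16 or more pairs in orange and shorter ones in grey. In TCONS_00250339 the orange arcs span nearly the whole 9090 nt and in TCONS_00131673 they nest around 908 nt, while the 24 pairs of TCONS_00058292 close a 3 nt loop near position 308.

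The helix went on beyond the uninterrupted stem in most members. With interruptions of up to 10 nt bridged, the median helix was 25 base pairs, the upper quartile 34 and the highest 729. It reached 50 or more pairs in 54 members and 100 or more in 14, and in 128 members it ended with the stem itself. The stem was thus often the uninterrupted core of a longer, interrupted duplex.

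GU wobble pairs were counted in the longest stem of each member. They made up 1169 of the 7480 pairs in these stems, or 15.6%, beside 54.8% AU pairs and 29.6% GC pairs. Over all 3077291 pairs of all deposited structures the shares were 11.3% GU, 46.5% AU and 42.2% GC. The long stems thus held a smaller share of GC pairs than the structures as a whole, and larger shares of AU and GU pairs. The wobble share of a single stem ranged from 0% to 58.8%, with a median of 15.8% and quartiles at 6.25% and 25%.

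No GU pair was present in 58 members (15%, Wilson interval 11.8 to 18.9), of which TCONS_00238053 had the longest stem, of 44 pairs. GU pairs made up at least 25% of the stem in 104 members and at least 50% in 5. The highest share was in TCONS_00038689, where 10 of 17 pairs were GU, between a U-rich 5′ arm and a G-rich 3′ arm. An uninterrupted run of 16 or more AU and GC pairs was found in 89 members, so that the other 298 owed their place in the set to GU pairs counted as part of the stem. The records do not say on which strand a transcript lies, and a GU pair read from the complementary strand would be an A facing a C, which does not pair. The runs of AU and GC pairs read the same from either strand.

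**Figure D3:**
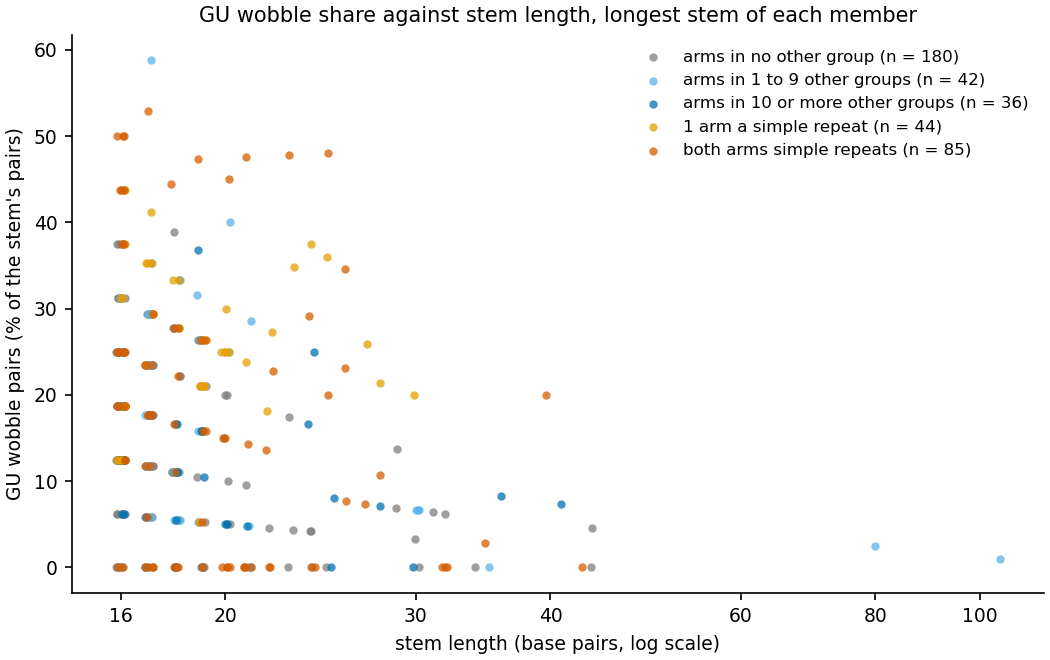
Share of GU pairs in the longest stem (% of its pairs) against its length (base pairs, log scale, shifted slightly sideways to separate points) for the 387 members, coloured by class of arm. The 7 stems of 40 or more pairs had shares of 0% to 20%, and shares of 50% or more lay at stems of 16 or 17 pairs.

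The span between the arms covered more than 3 orders of magnitude. It had a median of 258 nt, with quartiles at 43.5 and 623.5 nt, a lowest of 3 nt and a highest of 8672 nt. As a share of the transcript it had a median of 16.7%. Local hairpins, with at most 30 nt between the arms, were formed by 87 members (22.5%, Wilson interval 18.6 to 26.9), and 57 of these had a loop of 3 to 8 nt. A loop of 4 nt was the most frequent of the short loops, in 39 members, beside 7 with 3 nt and 5 with 5 nt. At the other end, 44 members (11.4%) had arms 1000 nt or more apart.

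The shortest loop with the longest stem was that of TCONS_00058292, a perfect palindrome with 24 pairs around 3 nt and no GU pair. The longest loop was that of TCONS_00250339. The wobble share had a median of 18.8% in the local hairpins and 15.4% in the 300 members with wider loops, and 13 and 45 of them had no GU pair. Arms were placed along the whole transcript: the 5′ arm began at a median of 34.9% of the length and the 3′ arm ended at a median of 71.1%. The 5′ arm began within the first 50 nt in 34 members, the 3′ arm ended within the last 50 nt in 34, and both held in 5.

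Arms were then sorted by their sequence. An arm was called a simple repeat when a unit of 1 to 6 bases accounted for at least 80% of its bases in 1 phase. Both arms were simple repeats in 85 members (22.0%, Wilson interval 18.1 to 26.4) and 1 arm in 44. Over all transcripts, 4.09% of the 10334779 windows of 16 bases passed the same limit. The other 258 members had arms of mixed sequence. They were divided by whether a 16-base piece of an arm was found, on either strand, in transcripts of other sequence groups: in 10 or more groups for 36 members, in 1 to 9 for 42 and in none for 180. Of all 16-base windows, 4.47% were found in another group and 0.81% in 10 or more. These shares count single windows, simple repeats included. A member was counted when any 16-base piece of either arm was found, so the units differ. Longer arms hold more such pieces. Groups were formed on the deposited strand only, so an overlapping transcript of the opposite strand would count as another group.

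**Figure D4:**
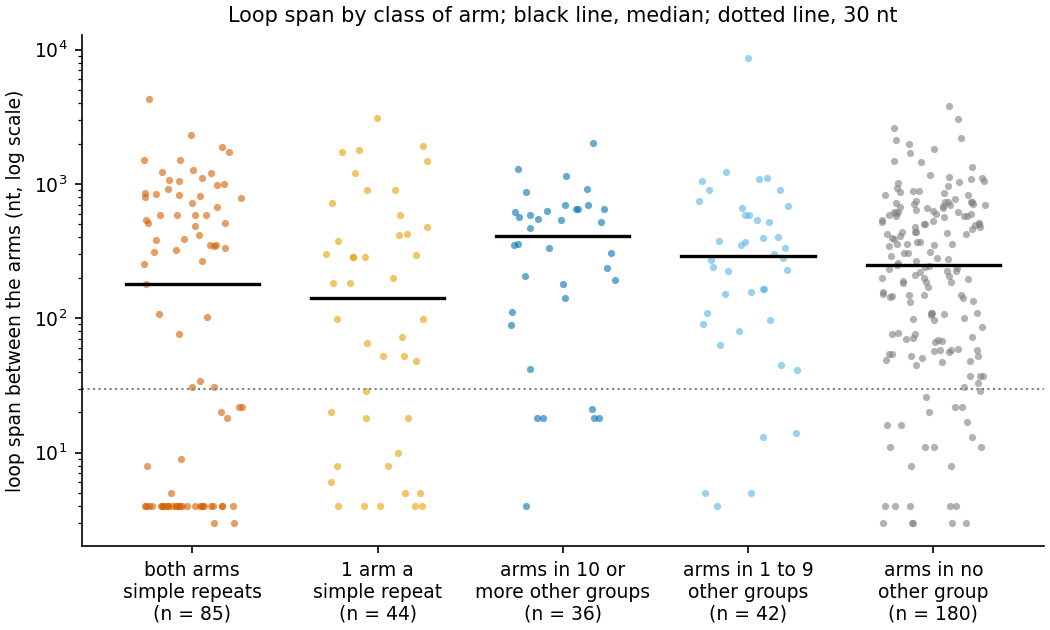
Span between the arms (nt, log scale) of each member by class of arm, with points spread sideways, the median of each class as a black line and the 30 nt limit of a local hairpin as a dotted line. The medians ran from 141 to 412 nt, and many points of the simple repeats lie at 4 nt.

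Local hairpins were most frequent among the simple repeats, with 36 of 85 members where both arms were repeats and 15 of 44 where 1 was. They were 6 of 36, 5 of 42 and 25 of 180 in the classes of mixed sequence, from the most to the least recurrent. The median span was 180 and 141 nt in the repeat classes and 412, 291.5 and 247.5 nt in the others. The share of GC pairs was 22.7% and 19.3% in the repeat classes, and 43.5%, 34.0% and 31.5% in the others. Members with 1 repeat arm had the highest median wobble share, 25.5%, and every one of the 44 had a GU pair. By construction, an arm joined to a repeat by AU and GC pairs alone is itself a repeat of the complementary unit.

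The repeat units combined in 33 ways, of which 18 were seen in 1 member each. The most frequent, GU facing AC, was found in 20 members of 18 sequence groups. Its longest stem was the 43 pairs of TCONS_00033438, where both arms were perfect repeats 995 nt apart. The GU arm came first in 12 members and the AC arm in 8. The stems had a median of 21 pairs, 15 of the 20 had no GU pair, and none was a local hairpin: the arms lay 102 to 4326 nt apart, with a median of 835 nt. TCONS_00249963 joined a GU repeat to an AC repeat by 35 pairs across 1898 nt, and TCONS_00198950 by 40 pairs across 836 nt with 8 GU pairs.

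A transcript that held both repeats nearly always had them paired. Perfect tracts of 16 or more bases of GU and of AC occurred together in 20 transcripts of the whole set, and in 18 of these they were paired with each other over 16 or more pairs in the deposited structure. A perfect AC tract, with or without a GU tract, occurred in 436 transcripts, of which 43 were members. A GU tract, with or without an AC tract, occurred in 241, of which 51 were members. Both counts include the 20 transcripts that held both tracts. An AC tract cannot pair with itself, and a GU tract only by wobble pairs, which reached 16 pairs in none of the 241 and fewer in 30. Of the units that can pair with themselves through AU pairs, an AU tract was present in 47 transcripts, paired with itself over 16 or more pairs in 5 and over fewer in 30, and an AUGU tract in 22, with 6 and 7.

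AU facing AU was the second most frequent combination, in 12 members, and 11 of them were local hairpins with a median loop of 4 nt. The longest was TCONS_00033136, with 28 pairs around 5 nt, none of them GC and 3 of them GU. AUGU facing AUGU followed, in 7 members of 5 sequence groups, all with a loop of 4 nt. Here GU pairs made up 43.8% to 50% of the stem, since each unit placed a G opposite a U. The longest was TCONS_00198811, with 25 pairs of which 12 were GU and 13 AU. AU facing GU was found in 5 members, 4 of them local hairpins, with GU shares of 17.6% to 52.9%.

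Purine repeats facing pyrimidine repeats made up 12 members with different units. Their GU share ranged from 0% to 44.4%, with a median of 20.9%. TCONS_00140225 joined a CUUU repeat to an AG repeat by 26 pairs across 784 nt, in which 6 pairs were GU. TCONS_00198637 joined a run of U to an AG repeat by 18 pairs across 381 nt, in which 8 pairs were GU. AAAU facing GUUU was found in 3 members and AAAC facing GUUU in 2, with TCONS_00222032 and TCONS_00130579 the longest at 22 pairs each. TCONS_00050451 stood apart by base composition: it had 60.4% GC, the highest of all members, and 13 of its 16 pairs were GC.

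The 36 members of mixed sequence whose arms recurred in 10 or more other groups had the highest median extended helix, 54 base pairs against 22.5 to 25 in the other classes. Their longest was 109 pairs, below the 729 and 217 of the less recurrent and the non-recurrent mixed arms. In 19 of the 36 the helix reached 50 pairs. The longest uninterrupted stem was the 41 pairs of TCONS_00229577, whose arms lay 111 nt apart and shared 16-base pieces with 253 other groups. TCONS_00166295 had 36 pairs and pieces in 267 groups, the highest number of the class, TCONS_00046981 30 pairs and 163 groups, and TCONS_00075822 25 pairs and 133 groups. As background, letters such as these are known from the B1 family of short interspersed elements of the mouse. No repeat library was searched here, so the arms are not assigned to a family.

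Mature miRNA sequences in the RefSeq table (GRCm38.p6) were searched in all transcripts on both strands. They occurred in 107 transcripts, 15 of them members, and a miRNA hairpin occurred in none. The 2 most frequent among the members are shown with the seed, bases 2 to 8, in capitals.
mmu-miR-3470b: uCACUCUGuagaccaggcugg
mmu-miR-706: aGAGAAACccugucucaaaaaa

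mmu-miR-706 was found in 7 members and mmu-miR-3470b in 5. They were followed by mmu-miR-3473b in 3 and mmu-miR-3473a in 1. The 4 sequences had different seeds. An arm of the longest stem overlapped a mature sequence in 5 members. In TCONS_00166295 all 21 bases of mmu-miR-3470b, read on the opposite strand, lay within the 5′ arm shown above, and all 21 were paired. In TCONS_00139820, 16 of the 22 bases of mmu-miR-706 lay in an arm of a stem of 20 pairs, and in TCONS_00200776, 16 of the 18 bases of mmu-miR-3473a in a stem of 17 pairs. TCONS_00229577 and TCONS_00128861 had 5 and 2 such bases. A match of letters is not evidence that a miRNA is made from the transcript.

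The 180 members whose arms were found in no other group made up 46.5% of the set. Their stems had a median of 17 pairs, and the longest was that of TCONS_00114606, with 44 pairs, 2 of them GU, across 357 nt. TCONS_00238053 matched this length without a GU pair, and its 5′ arm began at position 4 of 5345 nt. An exact stretch of 16 bases whose complement also occurred in the transcript was found in 99 members and in 118 transcripts overall (83.9%, Wilson interval 76.2 to 89.4). Conversely, 288 members held none. Their stems therefore rested on GU pairs within every window of 16.

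RefSeq promoter windows, from 250 bases before to 50 bases after a gene's start, gave a position to only a few transcripts. An exact stretch of 100 or more bases was shared with such a window by 105 transcripts, 3 of them members. TCONS_00166562 held all 300 bases of the window of Gm46875 (GRCm38.p6, chr4:142304346-142304645) on the same strand as the gene. It joined a GU repeat to an AC repeat by 32 pairs across 514 nt. TCONS_00154272 held the window of Gm52617 (chr3:138077976-138078275) on the opposite strand, together with a second window of that gene. TCONS_00131544 shared at least 222 bases with the window of Gm30591 (chr2:174937426-174937725), also on the opposite strand, and its stem was an AUGU hairpin of 16 pairs.

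Members were longer than the other new lncRNAs, with a median of 1598 nt against 1102 nt. Length sets how many pairings are open to a sequence, so this is given as a description. All transcripts were divided by length into 4 bins of nearly equal number. Members were 2.18% of those of 205 to 849 nt, 2.94% of those of 850 to 1117 nt, 3.73% of those of 1118 to 1489 nt and 10.4% of those of 1490 to 10118 nt. Per megabase of sequence the members numbered 33.1, 29.9, 29.1 and 45.7 in the same order, and the stems of 16 or more pairs 34.6, 30.9, 32.6 and 56.4. The number of stems per base was thus similar in the first 3 bins and highest in the bin of the longest transcripts. GC content had a median of 40.4% in members and 41.7% in the others, the folding energy -28.3 and -27.9 kcal/mol per 100 nt, and the paired share of bases 59.7% and 58.8%.

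The stem was a small part of the folding energy of most members. Its stacked pairs contributed a median of -27.1 kcal/mol, and 6.33% of the energy of the transcript, with quartiles at 3.87% and 9.76%. The lowest stacking energy was -209.9 kcal/mol, in TCONS_00250339. Per stack the energy had a median of -1.64 kcal/mol and ranged from -2.94 to -0.90. The highest share of the transcript's energy, 56.3%, was in TCONS_00214529, chosen after its values were seen, which was also the shortest member, with 313 nt. It had 34 pairs without a GU pair across 189 nt, and 23 of the pairs were GC.

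Each member was folded again to see whether its stem returned under other folding settings. The deposited energies were met within 0.01 kcal/mol for all 8040 structures by an older set of Turner parameters, and the new folds used the newer Turner set, the default of the folding program, and the set of Andronescu and coworkers. The new folds also used another setting for unpaired bases at helix ends than the one that met the deposited energies. A lost stem can therefore not be credited to the energy parameters alone. A stem was counted as kept when at least 50% of its pairs were in the new structure. Under the newer Turner set, 314 of 387 stems were kept (81.1%, Wilson interval 76.9 to 84.7), and under the Andronescu set, 250 (64.6%, interval 59.7 to 69.2). Both folds kept 234 stems and neither kept 57. The stems of TCONS_00250339, TCONS_00131673, TCONS_00114606, TCONS_00229577 and TCONS_00166295 were kept with all their pairs in both folds, and that of TCONS_00238053 with 40 of its 44.

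The class of arm and the refolding moved together. Under the newer Turner set the stem was kept in 35 of 36 members with highly recurrent arms of mixed sequence, in 37 of 42 with less recurrent arms and in 155 of 180 with arms found in no other group. It was kept in 32 of 44 members with 1 repeat arm and in 55 of 85 with both arms repeats (64.7%, Wilson interval 54.1 to 74.0). The Andronescu set gave 31, 29, 129, 18 and 43 in the same order. By span, the newer Turner set kept 69 of 87 local hairpins, 211 of 256 stems with wider spans under 1000 nt and 34 of 44 with 1000 nt or more.

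**Figure D5:**
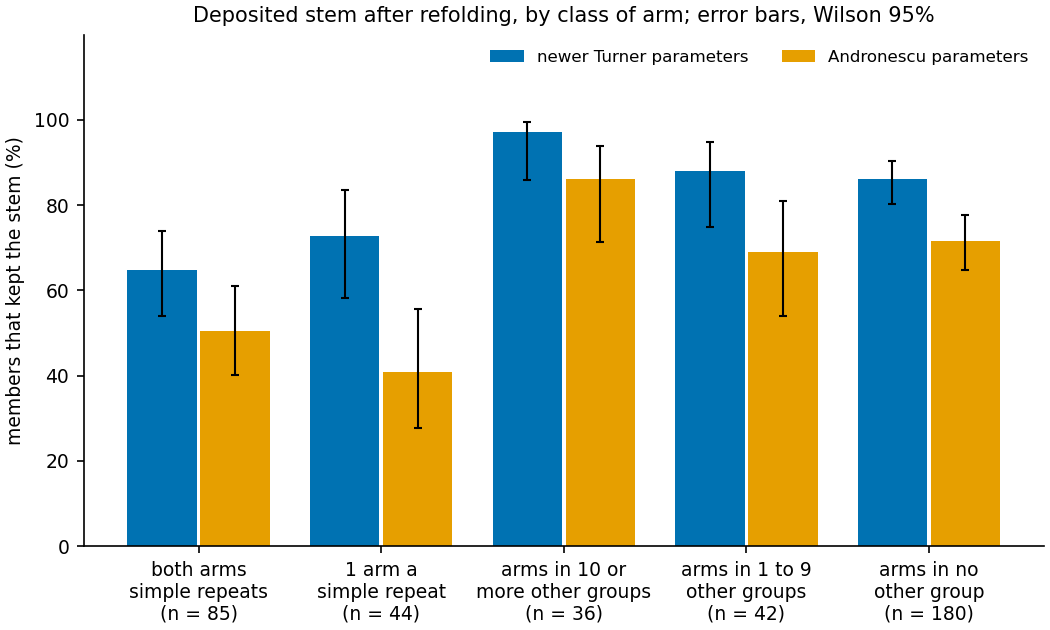
Share of members (%) whose deposited stem was kept with at least 50% of its pairs after refolding with 2 sets of energy parameters, by class of arm, with 95% Wilson intervals as error bars. The share under the newer Turner set was 64.7% where both arms were simple repeats and 97.2% where mixed arms recurred in 10 or more other groups.

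Many of the repeat stems lost under the newer Turner set had slid along the repeat. When the 3′ arm was allowed to move by up to 6 bases against the 5′ arm, a setting chosen after seeing the data, 17 further stems were found under the newer Turner set, 15 of them with repeats in both arms. The count for that class rose from 55 to 70 of 85, while that of the 258 members of mixed sequence stayed at 227. Under the Andronescu set 27 further stems were found, 17 of them with repeats in both arms, where the count rose from 43 to 60, and that of the mixed sequences from 189 to 191. Of the 20 GU with AC stems, the newer Turner set kept 11 in place and 17 with the slide, and the Andronescu set 9 and 16. All 20 transcripts again had a stem of 16 or more pairs under the newer Turner set. In TCONS_00033438 none of the 43 deposited pairs was in the newer Turner fold, which had a stem of 43 pairs as well, with 42 pairs found after a move of 2 bases. The Andronescu fold kept all 43 in place.

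None of the 6 GU with AC stems of 30 or more pairs was kept in place under the newer Turner set, and 4 of them were found with the slide. The Andronescu set kept 4 of the 6 in place and 5 with the slide. The 17 other stems of that length were all kept in place by the newer Turner set and 16 of them by the Andronescu set, so that 17 and 20 of the 23 stems were kept in all. In a repeat, moving an arm by whole units gives the same pairs again. For transcripts at the edge of the rule, those with a 15-pair stem and at most 3000 nt were folded again in the same way. The stem was kept in 202 of 255, and 20 (7.84%, Wilson interval 5.13 to 11.8) had a stem of 16 or more pairs in the new fold.

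Pairing probabilities over the ensemble of structures were computed for the 178 members of at most 1500 nt. The mean probability of the stem's pairs had a median of 0.944 with quartiles at 0.769 and 0.980. It was 0.9 or more in 110 members and under 0.5 in 29, and 15 of these 29 had repeats in both arms. The median was 0.724 in the 37 such members with a value, and 0.928 to 0.976 in the other 4 classes. TCONS_00114606 had 0.993, TCONS_00166295 0.999 and TCONS_00033438 0.792. The AU hairpin of TCONS_00033136 had 0.466, and the AUGU hairpin of TCONS_00198811 0.638. Both repeat hairpins thus lay under TCONS_00114606 and TCONS_00166295. The stem of TCONS_00038689, with arms of mixed sequence and the highest wobble share, had 0.617. These values count only the deposited pairs, and pairs of a stem slid along its repeat are not included.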

How the data were processed

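Cortex RNA of control and SAH mice was sequenced after removal of ribosomal RNA. By the submitters' processing notes, reads were aligned with TopHat2 to mm10. Transcripts that matched no known RNA and had no coding potential were kept by the authors as new lncRNAs. For each, the authors deposited a sequence, a dot-bracket structure and a folding energy in kcal/mol. The assembler and the folding program are not given in the sources used here.

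Stems, loops and arms were read from the deposited structures. Ties between stems went to the one nearest the 5′ end. Transcripts sharing 100 exact bases on the strand as deposited, directly or through other transcripts, formed a sequence group. Energies, new folds and pairing probabilities (older Turner set) used ViennaRNA 2.7.2, with a separate process for each parameter set. The new folds and the probabilities used dangling-end setting 2, whereas the deposited energies were met with another dangling-end setting. Tables and plots were made in Python 3.11.15 with pandas 2.3.3, matplotlib 3.10.9 and numpy 2.4.6, and intervals with scipy 1.17.1. Scripts were tested on simulated data. The members and lists were chosen with earlier results of these data known. Named transcripts were the 10 longest stems, the longest of each arm class and repeat pair, extremes of wobble share and loop, 3 transcripts on each side of the threshold, members with 3 or more stems (at most 5) and RefSeq matches (at most 10). TCONS_00139820, TCONS_00154272, TCONS_00166562, TCONS_00200776 and TCONS_00214529 were chosen after their values were seen.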

Additional observations from a re-analysis of the deposited data

How the results depend on the processing

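The number of members followed the threshold closely, with 1217 transcripts at 14 base pairs, 180 at 18 and 96 at 20. It was 89 with AU and GC pairs only. It was 4525 when interruptions of a single bulged base or a single mismatch were bridged, with no limit on their number within a stem. The share of stems kept in a second fold, 81.1% under the newer Turner set, was 64.6% under the Andronescu set. It was 70.8% where all pairs had to be kept and 85.5% with a slide of up to 6 bases, both chosen after seeing the data. The share with repeats in both arms, 22.0%, was 38.5% at 70% purity, 9.82% at 90%, 33.3% where 1 arm was enough and 35.4% among stems of 20 or more pairs, the last chosen after seeing the data. The share of members with arms found in other groups, 50.4%, was 85.0% with pieces of 14 bases. The other 9 alternatives of these results included 1 transcript per sequence group. They left a share or median within its 95% interval and changed the count by less than 1.5 times. Among them, the median GU share over all stems of 16 or more pairs was 12.5%. This lay on the lower limit of its interval, 12.5% to 17.65%. The share with arms found in other groups was 55.2% with pieces of 20 bases, taken over the 96 members with arms that long. No paired analysis was possible because the records hold no value of a single library. The structures are predictions, and the depth behind a transcript is unknown.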
